A study of Caenorhabditis elegans with 2 samples.

Results

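The intronic peaks of HMG-11 on the autosomes of *Caenorhabditis elegans* are described here. A peak was counted when its summit lay inside a protein-coding gene, in no annotated exon, and outside the window of 1000 bp upstream to 200 bp downstream of every protein-coding transcript start. The authors' final list, filtered by the irreproducible discovery rate (IDR, which scores how well the order of regions repeats), held 4037 peaks. Of these 3260 lay on autosomes and 370 met the rule, in the introns of 270 host genes. The peaks came from chromatin immunoprecipitation with an anti-GFP antibody (ChIP-seq) on whole L3 hermaphrodites of strain TH184, genotype unc-119(ed3) III; ddIs101. The animals had been synchronised as starved L1 larvae and were taken 52 h later. They stably expressed HMG-11 fused at its C-terminus to GFP and FLAG, and the labels do not give the promoter of the transgene. There was 1 group of 2 biological replicates, and every animal carried the unc-119 mutation and the transgene. No input or untagged library was analysed here, so no enrichment over a control was computed. The material was whole animals, so a weak region and a region bound in few cells cannot be told apart.

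HMG-11 is an HMGA-type protein. Proteins of this type carry AT-hooks, short peptides that grip runs of A and T bases from the minor groove, and they are known as architectural factors that shape chromatin. Introns of *C. elegans*, above all long ones near the 5′ end of a gene, can hold enhancers and the promoters of shorter transcripts of the same gene. Some also hold whole nested genes for transfer RNAs (tRNAs), small nucleolar RNAs (snoRNAs) and small nuclear RNAs (snRNAs), which have promoters of their own, many of them served by RNA polymerase III.

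The summit and 50 bp on either side are printed for 5 peaks beside nested short RNA genes, because these peaks include the strongest of all 370. Over chromosomes II to V they are the 2 strongest at tRNA genes, the 2 strongest at snoRNA genes and the only one at an snRNA gene. The sequences are from the forward strand of the RefSeq genome of the assembly WBcel235 (ce11), and capitals mark bases of the annotated RNA gene. The windows surround the summits in dhc-4 (chrIII:10989599-10989699, beside the snRNA gene R07E5.16), pxn-1 (chrV:8500502-8500602, beside the snoRNA gene ZK994.7), twk-5 (chrII:11484730-11484830, beside the snoRNA gene B0334.12), lelo-2 (chrIII:1424422-1424522, beside a tRNA gene) and pgp-1 (chrIV:12594648-12594748, beside a tRNA gene).
dhc-4: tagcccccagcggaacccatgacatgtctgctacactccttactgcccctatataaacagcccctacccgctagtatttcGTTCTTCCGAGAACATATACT
pxn-1: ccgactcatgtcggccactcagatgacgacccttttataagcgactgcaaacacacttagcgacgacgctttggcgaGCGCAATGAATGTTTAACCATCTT
twk-5: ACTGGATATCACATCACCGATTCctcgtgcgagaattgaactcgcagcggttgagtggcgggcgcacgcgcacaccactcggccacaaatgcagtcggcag
lelo-2: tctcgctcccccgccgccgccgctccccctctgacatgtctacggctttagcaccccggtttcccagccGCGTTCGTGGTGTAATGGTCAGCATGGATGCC
pgp-1: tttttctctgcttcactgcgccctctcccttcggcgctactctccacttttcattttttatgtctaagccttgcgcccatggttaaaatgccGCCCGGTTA

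The windows of the 8 strongest peaks of chromosomes II to V away from such genes follow, and 1 listed region that was not a peak is printed after them. Capitals mark GAGAGA or its reverse complement TCTCTC, which 146 of the 370 windows held. The windows lie in zfp-1 (chrIII:8795854-8795954), spop-1 (chrIII:10096658-10096758), gei-4 (chrIII:349864-349964), Y111B2A.12 (chrIII:12612591-12612691), daf-5 (chrII:14040339-14040439), Y57G11C.22 (chrIV:14838235-14838335), pqn-41 (chrIII:1925327-1925427) and lag-1 (chrIV:6097207-6097307). The gei-4, Y111B2A.12 and pqn-41 windows hold no such hexamer. The region in subs-4 (chrIII:11387990-11388090, signal 28.1) stands in the middle of the other listed regions by signal. It is not typical of them in base composition. Its A+T content of 54.5% lies below their lower quartile of 60.4% (median 67.3%).
zfp-1: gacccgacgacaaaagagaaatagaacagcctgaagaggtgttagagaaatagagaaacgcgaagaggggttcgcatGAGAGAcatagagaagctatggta
spop-1: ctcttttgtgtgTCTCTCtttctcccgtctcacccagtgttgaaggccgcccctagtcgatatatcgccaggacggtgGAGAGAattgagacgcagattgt
gei-4: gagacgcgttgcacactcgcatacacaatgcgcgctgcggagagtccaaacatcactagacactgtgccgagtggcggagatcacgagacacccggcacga
Y111B2A.12: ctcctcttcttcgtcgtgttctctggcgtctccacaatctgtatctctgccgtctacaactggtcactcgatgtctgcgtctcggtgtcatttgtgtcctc
daf-5: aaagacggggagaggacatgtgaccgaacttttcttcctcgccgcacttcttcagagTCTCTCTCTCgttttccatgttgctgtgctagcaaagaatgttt
Y57G11C.22: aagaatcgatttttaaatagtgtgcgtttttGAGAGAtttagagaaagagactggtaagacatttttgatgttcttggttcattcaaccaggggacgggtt
pqn-41: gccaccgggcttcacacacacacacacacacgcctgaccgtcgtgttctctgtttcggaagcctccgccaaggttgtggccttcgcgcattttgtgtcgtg
lag-1: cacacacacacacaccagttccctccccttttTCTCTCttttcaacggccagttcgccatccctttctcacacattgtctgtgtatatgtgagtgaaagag
subs-4: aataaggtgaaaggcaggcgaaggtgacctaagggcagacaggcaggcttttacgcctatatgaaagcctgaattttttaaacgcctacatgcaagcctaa

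Introns held a small share of the peaks for the number of regions listed in them. The authors' list called on the pooled reads of both replicates held 30000 regions, peaks and background together, of which 24413 lay on autosomes and 13.4% of those were IDR peaks. Of the 7205 listed autosomal regions that met the positional rule, 370 were peaks (5.14%, 95% Wilson interval 4.65 to 5.67). The same share was 24.4% (2042 of 8375) in the promoter windows, 12.2% (636 of 5230) in intergenic sequence and 5.88% (212 of 3603) in exons. Introns took 11.3% of the autosomal peaks, against 32.3% of the other autosomal regions. The other 6835 listed intronic regions, from the weaker part of the same list, are the comparison set throughout. Intervals cover counting error over regions only. Regions of 2 libraries are not replicates of a condition, and no p-value is attached to any comparison between sets of regions.

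Intronic peaks had signals slightly below those of promoter and intergenic peaks. The signal is a value the authors gave each region, on a scale not given in the sources used here, and it serves only to rank regions within a list. The IDR list equalled the 4037 strongest pooled regions by signal, so the signal separates the 2 intronic sets by construction. It ran from 68.3 to 389 in the intronic peaks, with a median of 99.8 (quartiles 79.5 and 137). The medians of the autosomal promoter peaks and intergenic peaks were 107 and 104, and that of the other listed intronic regions was 28.1. Intronic peaks made up 3 of the 30 strongest pooled regions, 8 of the strongest 100, 45 of the strongest 500 and 84 of the strongest 1000. For comparison, they were 370 of all 4037 peaks. The weakest were in lron-9, Y17D7C.2 and ncl-1, at 68.5, 68.4 and 68.3. The strongest intronic regions left out were in Y37D8A.6, dep-1 and Y48G8AL.15, at 67.9, 67.9 and 67.8.

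All 370 intronic peaks overlapped a listed region of each replicate by at least 1 bp, against 65.7% of the other listed intronic regions (4488 of 6835). Among the 4037 strongest regions of its own list, replicate 1 held 303 of the 370 (81.9%) and replicate 2 held 327 (88.4%). Both replicates held 266 (71.9%, interval 67.1 to 76.2), and 6 were among the strongest of neither. The corresponding share in both was 77.7% for promoter peaks and 74.1% for intergenic peaks. The Spearman correlation of the 2 replicates' ranks, taken across regions of the same 2 libraries, was 0.68 over the intronic peaks and 0.33 over the 4488 other intronic regions listed in both. As a set the intronic peaks stood high in both lists. They were chosen from these same 2 replicates, so this standing and the contrast with the other regions follow in large part from the choice. They are no independent support. Single peaks differed. A peak in unc-33, at signal 73.2 and beside a tRNA gene, ranked 18671 in replicate 1 and 2117 in replicate 2. A peak in unc-43, which encodes the calcium-dependent kinase CaMKII, ranked 1163 in replicate 1 and 12187 in replicate 2. The let-526 peak, in a gene for a SWI/SNF remodeller subunit, had a pooled signal of 229 and ranked 1016 in replicate 1 and 94 in replicate 2. Overlaps mean that the peaks are not all separate places. Of the 370, 34 overlapped another intronic peak, and joining these left 353 places. The deposited width was 456 bp for 354 peaks and less for the other 16.

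**Figure D1:**
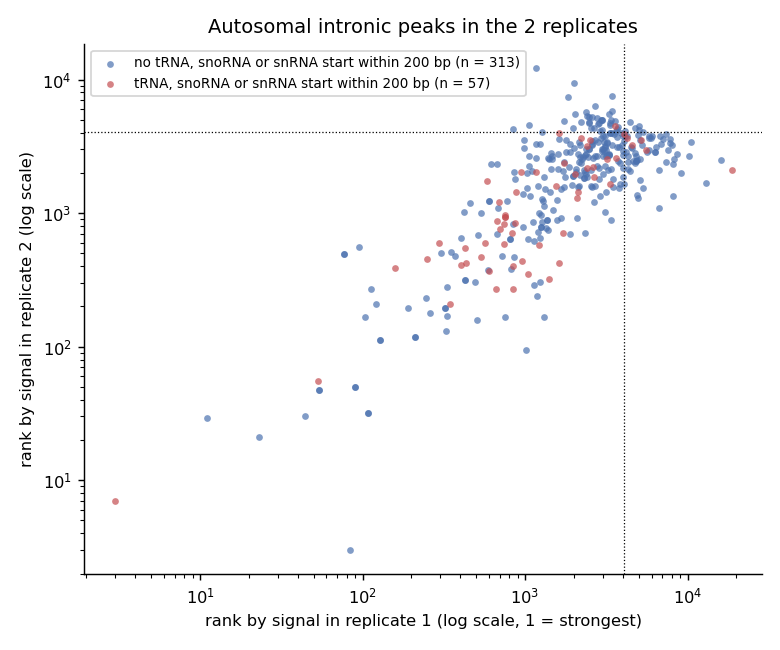
Rank by signal of each of the 370 intronic peaks in replicate 1 (horizontal axis) and replicate 2 (vertical axis), both on log scales, with rank 1 the strongest. Points are peaks, red where a tRNA, snoRNA or snRNA start lies within 200 bp (n = 57) and blue otherwise (n = 313). The dotted lines mark rank 4037 in each list, and 266 points lie below and left of both.

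The strongest intronic peak was in dhc-4, a dynein heavy chain gene on chromosome III. Its signal was 389, it ranked 4 in the pooled list, 3 in replicate 1 and 7 in replicate 2, and its summit lay 30 bp upstream of the snRNA gene R07E5.16 in an intron of 360 bp. The next was in zfp-1, which encodes a chromatin protein of the AF10 family. Its signal was 342, with ranks of 11 in replicate 1 and 29 in replicate 2. The intron that held it is the first of some coding transcripts of zfp-1. The peak of K11D2.4 followed at 316, with ranks of 44 and 30 in replicates 1 and 2. These strongest regions stood near the top of each replicate. Next came spop-1, a gene for a BTB-domain adaptor of ubiquitin ligases, at 303 (ranks 108 and 32 in replicates 1 and 2). The pxn-1 peak, in a peroxidasin gene, had a signal of 296 (ranks 53 and 55) and lay 27 bp upstream of the snoRNA gene ZK994.7. The remaining peaks of the strongest 10 were in gei-4 (291), Y111B2A.12 (285), daf-5 (261), Y57G11C.22 (243) and pqn-41 (240), and none of these 5 lay near a short RNA gene. The 10 after those were in lag-1, K01F9.2, Y105C5A.15, ppfr-1, let-526, hlh-30, Y62E10A.13, C35B1.2, lelo-2 and again pqn-41, with signals from 238 down to 220. Of the strongest 20, only those in dhc-4, pxn-1 and lelo-2 had a tRNA, snoRNA or snRNA start within 200 bp.

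Intronic peaks were more often beside nested tRNA, snoRNA and snRNA genes than the other listed intronic regions were. A start of such a gene lay within 200 bp of 57 of the 370 summits (15.4%) and of 41 of the other 6835 summits (0.600%). Of the 98 listed intronic regions this close, 58.2% were peaks, and of the 56 within 50 bp, 80.4% were (45 peaks and 11 others). By class, 38 peaks and 20 other regions lay within 200 bp of a tRNA start, 17 and 14 of a snoRNA start, and 2 and 7 of an snRNA start. tRNA genes, which are transcribed by RNA polymerase III from promoter elements inside the gene, made up the largest of these groups. Within 50 bp of a tRNA start lay 33 peaks and 6 other regions.

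The summits sat just upstream of the RNA genes. The rule leaves out summits inside an RNA gene, since its exon is annotated, and so narrows where a summit can lie: another 16 IDR peaks and 16 other listed regions had their summit inside such a nested gene. Of the peaks that met the rule, 54 of 57 lay upstream of the start, against 26 of 41 other regions. The median position relative to the start was 26 bp upstream (−26 bp, range −90 to 177) at tRNA genes, with 36 of 38 upstream. It was −25 bp (range −99 to 97) at snoRNA genes, with 16 of 17 upstream, and the 2 snRNA summits lay at −58 and −30 bp. The snoRNA exception is the twk-5 peak, in a TWK-family potassium channel gene, whose summit lay 97 bp past the start of B0334.12, on its 3′ side as the printed window shows. The median signal was 126 at tRNA genes and 164 at snoRNA genes, and the 57 peaks together had a median of 154, against 95.5 for the other 313. Most nested genes had no intronic peak, where a peak with its summit inside the RNA gene is not counted. Among genes whose upstream base lay in a coding gene, outside its coding transcripts' exons and the promoter windows, 40 of 154 tRNA genes (26.0%) had one within 200 bp, as did 17 of 113 snoRNA genes (15.04%) and 2 of 50 snRNA genes (4.00%).

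**Figure D2:**
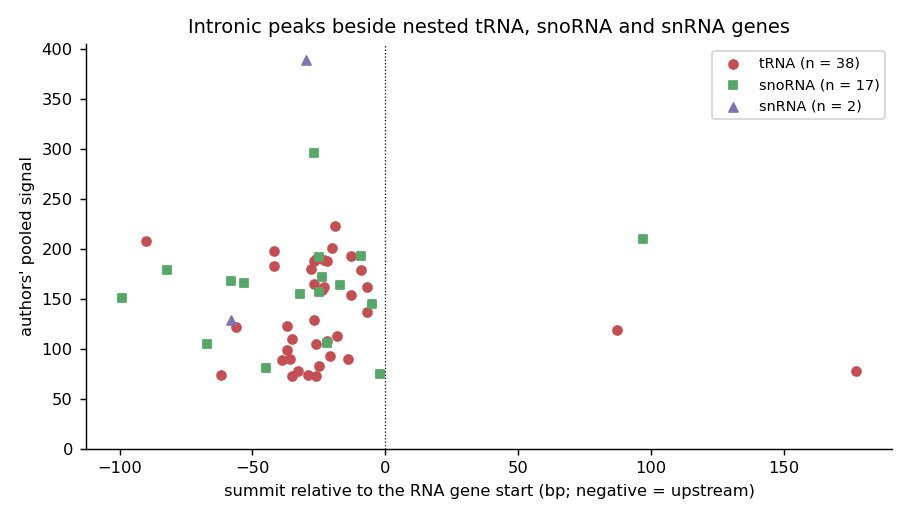
Authors' pooled signal (vertical axis) of the 57 intronic peaks with a tRNA, snoRNA or snRNA start within 200 bp, against the position of the summit relative to that start in bp (horizontal axis, negative upstream). Each point is a peak, with 38 at tRNA, 17 at snoRNA and 2 at snRNA genes, and 54 of the 57 lie left of the dotted line at the start.

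Other noncoding classes gave other values. Starts annotated as ncRNA, a mixed class of noncoding transcripts, lay within 1000 bp of 22.7% of the peaks (84) and 8.56% of the other regions (585). Of the 57 peaks beside short RNA genes, 28 had an ncRNA start within 200 bp. Away from short RNA genes, the shares within 1000 bp were 16.9% of peaks (53) and 8.33% of other regions (566). miRNA starts lay within 1000 bp of 9 peaks and 30 other regions. For piRNA genes, which encode short germline guide RNAs, the shares within 1000 bp were 4.59% of peaks and 4.30% of the other regions, but none of the peaks and 102 of the other regions lay within 100 bp. A count of 0 of 370 allows a share of up to 0.811% (3 counts of the total), for counting error only, and the share of the other regions was 1.49%.

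The 57 peaks beside short RNA genes and the 313 others lay in different kinds of intron. An intron counted as first when it was the first of any coding transcript of the host, so it can lie far from the gene's 5′ end. The part of shorter transcripts with later starts in the shares of first introns was not tested. The introns beside short RNA genes had a median length of 346 bp, only 5 of 57 (8.77%, interval 3.81 to 18.9) were first introns, and 84.2% were introns of every coding transcript of the host. Of the 313 other peaks, 174 (55.6%, interval 50.1 to 61.0) were in first introns, the median intron length was 3921 bp, and 30.7% were in introns of every transcript. For the 6794 listed non-peak regions that were not beside such genes, those values were 33.3%, 1451 bp and 59.9%. The 41 non-peak regions beside such genes also lay in shorter introns than these (median 578 bp) and less often in first introns (9 of 41). Over all 370 peaks, 48.4% (interval 43.3 to 53.5) lay in a first intron, against 33.3% (32.1 to 34.4) of the other listed regions. The median intron was 3243.5 bp long, against 1448 bp, and the summit lay 1012 bp from the nearest exon, against 343 bp.

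Peaks lay in long introns beyond the share that the extra sequence gives. There were 16.7 peaks per Mb of the 22.2 Mb of autosomal intron that met the rule. This density was 7.61 per Mb in introns of up to 500 bp, 6.62 above that and up to 1000 bp, 9.68 up to 2000 bp, 30.4 up to 4000 bp, 45.8 up to 8000 bp and 58.9 above 8000 bp. The density of the other listed regions also grew with length, from 143 per Mb in the shortest class to 599 per Mb in the longest. The share of listed regions that were peaks was therefore taken in each class. It was 5.05%, 2.33%, 2.53%, 7.33%, 8.37% and 8.96% in the same order. Of the 49 peaks in introns of up to 500 bp, 35 were beside short RNA genes. Long introns were more often first introns in both sets. In introns of up to 500 bp, 8.16% of peaks (interval 3.22 to 19.2) and 18.1% of the other regions (15.8 to 20.7) lay in a first intron. Above that and up to 1000 bp it was 14.3% of peaks (6.26 to 29.4) and 21.4% of the other regions (19.3 to 23.5), and up to 2000 bp 38.6% of peaks (25.7 to 53.4) and 25.04% of the other regions (23.04 to 27.2). In introns over 2000 and up to 4000 bp, 57.0% of peaks (interval 46.4 to 66.9) and 40.2% of the other regions (37.3 to 43.1) lay in a first intron. Up to 8000 bp it was 63.8% of peaks and 53.5% of the other regions, and above 8000 bp 71.0% of peaks and 60.2% of the other regions. The share was lower in peaks than in the other regions in the 2 shortest classes and higher in the 4 longest. The intervals of peaks and other regions overlapped in every class except that over 2000 and up to 4000 bp.

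**Figure D3:**
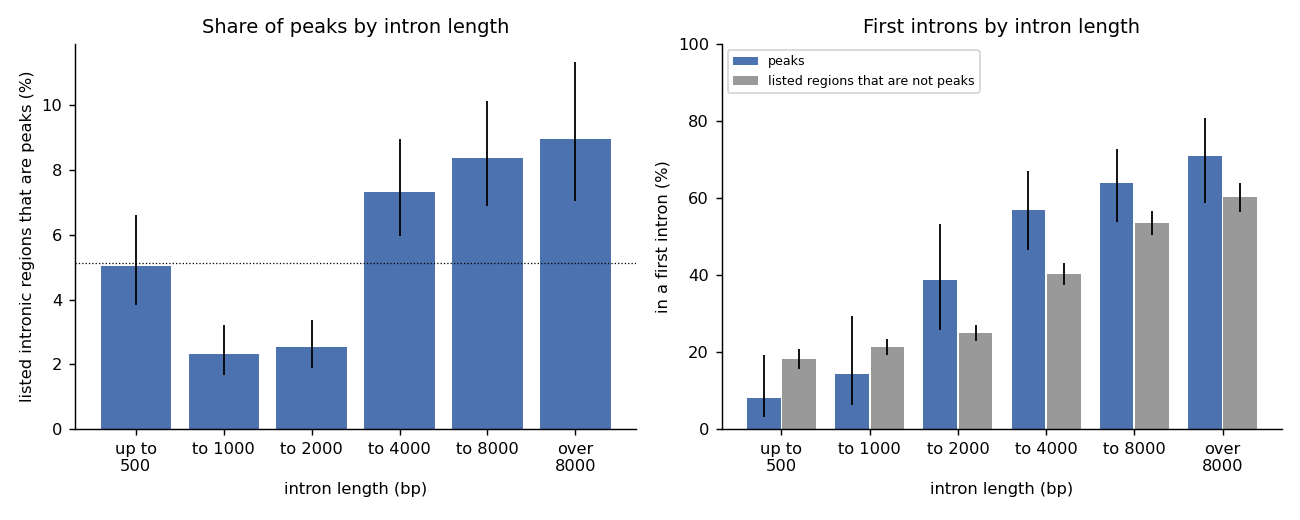
Left, share of listed autosomal intronic regions that were IDR peaks (vertical axis, %) by length of the intron in bp, with the overall share of 5.14% as a dotted line. Right, share of summits in a first intron (%) by the same length classes, for peaks (blue) and the other listed intronic regions (grey). Error bars are 95% Wilson intervals. Peaks were 2.33% of listed regions in introns over 500 and up to 1000 bp, and 8.96% above 8000 bp.

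Many of these introns run ahead of a start used by a shorter transcript. The host had a further coding start downstream of the summit for 61.1% of the peaks (interval 56.0 to 65.9) and 37.5% of the other listed regions. That start lay within 3000 bp for 132 peaks (35.7%) and 17.7% of the other regions. The host's own promoter window held an IDR peak for 124 of the 370 (33.5%, interval 28.9 to 38.5) and for 34.9% of the other regions, which lies inside the interval of the peaks. By set, that share was 35.8% for the peaks away from short RNA genes and 21.1% (12 of 57) for those beside them. The nearest upstream start of the host lay at a median of 2448.5 bp from the peaks and 2477 bp from the other regions.

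By chromosome, the density was 24.3 peaks per Mb of such intron on III (107 peaks), 16.6 on II (62), 14.9 on IV (66), 14.6 on I (72) and 13.4 on V (63). The other listed regions were also densest on III, at 374 per Mb, and the share of listed regions that were peaks ran from 3.87% on I to 6.09% on III. Between 25% and 75% of the length of each chromosome, which is gene-dense in this species, lay 50.3% of the peaks and 34.0% of the other regions. There the density was 20.1 peaks per Mb, and 14.2 in the outer parts. The other regions ran the other way, at 252 per Mb in the central parts and 348 per Mb in the outer parts.

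The DNA under intronic peaks was less A/T-rich than that of other listed intronic regions. In the summit base and 50 bp to each side the median A+T content was 52.5% (quartiles 46.5 and 57.4), against 67.3% (quartiles 60.4 and 73.3) for the other regions and 68.2% over all autosomal intron that met the rule. Autosomal promoter peaks had a median of 53.5% and intergenic peaks 52.5%. The median was 47.5% for the 57 peaks beside short RNA genes and 52.5% for the other 313. The longest run of A and T bases had a median of 6 bases in the peaks and 10 in the other regions. It was 7 in promoter peaks and 6 in intergenic peaks. The share of listed regions that were peaks was 42.5% below 45% A+T, 32.1% from 45% to 50%, 17.8% from 50% to 55%, 7.43% from 55% to 60%, 2.86% from 60% to 65% and 0.370% at 75% or more. G+C content can itself change the yield of sequencing libraries, and without an input library the part of this in the contrast was not tested.

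A+T content was lowest at the strongest signals and changed little over the weaker regions. When all 7205 intronic regions were cut into 20 equal bins by signal, the median A+T content was 52.5% in the strongest bin, 60.4% in the next, 64.4% in the one after, and between 65.3% and 69.3% in the other bins. The second bin held 9 peaks and the bins after it none, so the lower A+T content ran on below the peak threshold. Bases soft-masked as repeats in the reference took a median of 16.3% of the window in peaks and 56.4% in the other regions. The medians were 20.8% in autosomal promoter peaks and 18.8% in intergenic peaks.

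**Figure D4:**
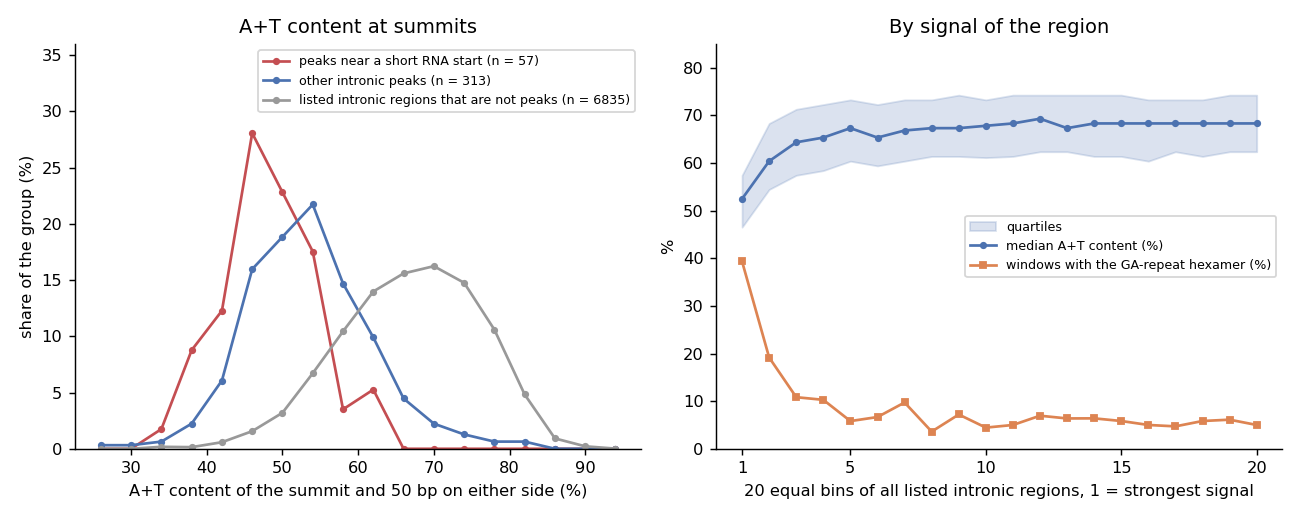
Left, distribution of A+T content (%) at the summit and 50 bp to each side for intronic peaks near a short RNA start (red), other intronic peaks (blue) and listed intronic regions that are not peaks (grey), as the share of each group (%). Right, median A+T content with quartiles (blue) and share of windows with the GA-repeat hexamer GAGAGA on either strand (orange) in 20 equal bins by signal, strongest first. The strongest bin has a median of 52.5% and a GAGAGA share of 39.3%.

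Short A/T words were rarer in the peaks and a GA repeat was more common. AATT, a core that AT-hooks are known to favour, was in 33.5% of the peak windows (interval 28.9 to 38.5) and 83.0% of the other windows, and in 53.6% of promoter peaks and 38.4% of intergenic peaks. AAATTT was in 5.41% of peak windows and 41.7% of the other windows. With replicate 1 alone, replicate 2 left out, the peak share was 12.8%. A run of 6 A bases, searched on both strands like every motif here, was in 27.0% of peaks and 61.2% of the others. Intergenic peaks had shares close to these, 5.35% for AAATTT and 25.8% for the A run. The part of base composition in these shares was not tested. GAGAGA was in 146 peak windows (39.5%, interval 34.6 to 44.5) and 7.05% of the other windows. It was in 25.9% of promoter peaks and 45.1% of intergenic peaks, and in 11.1% of the other listed regions of each of these kinds. It also stood apart within classes of A+T content: 40.1% of peaks and 17.1% of other regions below 50% A+T, 41.2% and 15.6% from 50% to 60%, and 41.2% and 6.83% from 60% to 70%. At 70% or more it was in 0 of 12 peaks, which allows a share of up to 25%, and in 2.19% of the other regions.

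The hexamer was in 12 of the 57 windows beside short RNA genes (21.1%) and in 134 of the 313 others (42.8%). Peaks with it had a median signal of 105, and those without it 94.4. CGCG, a pair of adjacent CpG steps, was in 28.4% of intronic peaks and 11.3% of the other regions. The palindromic E-box CACGTG was in 1.35% of peaks and 1.59% of the other regions. A GATA-factor site (TGATAA) was in 4.86% of peaks and 6.88% of the other regions.

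The TATA-like hexamer TATAAA was in 5.14% of peaks and 10.4% of the other regions, and in 6 of the 57 windows beside short RNA genes (10.5%). Promoter peaks held it in 4.90% and intergenic peaks in 3.14%, and the part of base composition in these shares was not tested. Both the dhc-4 and pxn-1 windows held TATAAA on one strand. Another hexamer, CGTCTC, was picked after the sequences were seen, and was in 24.6% of peaks and 2.78% of the other regions. It was in 19.8% of promoter peaks and 29.2% of intergenic peaks, and the part of base composition was not tested. A match says only that the letters were there.

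The CA repeat of the pqn-41 and lag-1 windows (CACACA) was picked in the same way. It was in 21.6% of peaks and 6.04% of the other regions, and in 14.5% of promoter peaks and 17.9% of intergenic peaks. The part of base composition was not tested here either.

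Most hosts had 1 peak. Of the 2472 genes with a listed intronic region, 270 (10.9%) had at least 1 peak. There were 201 hosts with 1, 49 with 2, 13 with 3, 4 with 4, 2 with 5 and 1 with 6. The 6 were in daf-5, which encodes a Sno/Ski-family partner of Smad proteins in TGF-beta signalling of the dauer pathway. They had signals of 261, 150, 140, 116, 74.3 and 72.8, and 5 of them lay in its first intron of 14446 bp. The 2 strongest overlapped, with summits at 11915 and 11715 bp from the 5′ end of the gene, and matched a single region of each replicate, at ranks 128 in replicate 1 and 112 in replicate 2. The weakest of the daf-5 peaks ranked 4726 in replicate 1 and 4320 in replicate 2.

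All 5 peaks of pqn-41, a gene for a glutamine-rich protein, lay in 1 intron of 7770 bp that ends at a shorter transcript's start. Their signals were 240, 220, 149, 130 and 97.6, and the strongest ranked 191 in replicate 1 and 195 in replicate 2. The peaks at 220 and 130 overlapped and matched a single region of each replicate, at ranks 77 in replicate 1 and 492 in replicate 2. In ncl-1, which encodes a B-box protein that limits nucleolar size, the 5 signals ran from 68.3 to 120, and 4 of the peaks were in an intron of 7302 bp. With 4 peaks each, ppfr-1 (a protein phosphatase 4 regulatory subunit) ranged from 81.0 to 232, daf-16 (the FOXO factor of insulin signalling) from 71.1 to 205, aakg-1 (a gamma subunit of AMP-activated kinase) from 85.6 to 134 and mpz-1 (a protein with many PDZ domains) from 68.8 to 98.9. Of these 7 hosts, pqn-41 and ppfr-1 had a peak in their promoter windows as well. The ppfr-1 peaks at 232 and 119.5 did not overlap but matched a single region of replicate 2, at rank 168. The hosts with 3 peaks were zfp-1, K01F9.2, Y116F11A.6, lin-42 (the Period homologue of the larval timing pathway), F57A8.1, glb-25, spat-2, lsy-22, ccm-2, sel-8 (a Notch cofactor), fkh-7 (a forkhead factor), unc-43 and crh-1 (the CREB factor).

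**Figure D5:**
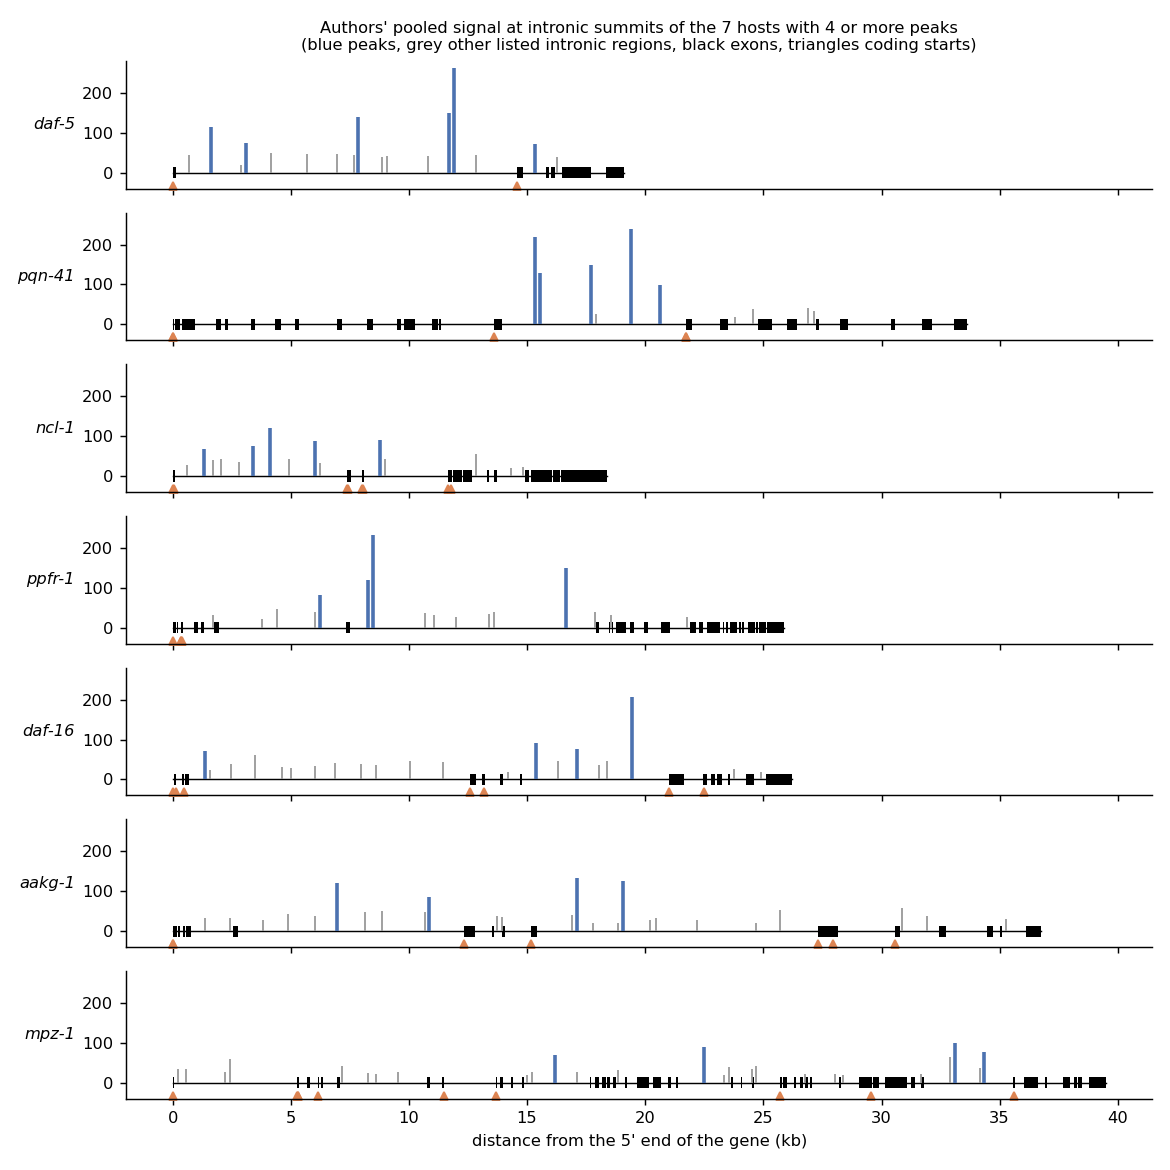
Authors' pooled signal (vertical axis) of intronic summits along the 7 hosts with 4 or more intronic peaks, against distance from the 5′ end of the gene in kb. Blue bars are peaks, grey bars other listed intronic regions, black boxes exons and triangles coding transcript starts. In daf-5 the 6 peaks reach 261, and in pqn-41 all 5 stand in the intron before the last start.

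The hosts were also counted in 12 lists of genes by function, and each share is set beside the 10.9% of all hosts. Among developmental signalling genes of the Ras, Wnt, Notch and TGF-beta pathways 7 of 31 hosts had a peak (22.6%, interval 11.4 to 39.8). The strongest were in daf-5 (261), lag-1, the DNA-binding factor of Notch signalling (238), mpk-1, an ERK kinase (206), and daf-14, a Smad (158). Insulin signalling genes with related kinases and cyclases counted 10 of 30 (33.3%, interval 19.2 to 51.2), with daf-16 (205), the guanylyl cyclase gcy-28 (178), kin-4 (147) and unc-43 (106). DNA-binding factors outside the homeobox and nuclear receptor families counted 12 of 47 (25.5%, interval 15.3 to 39.5), led by hlh-30, the TFEB homologue (228), daf-16, mef-2 (133) and fkh-7 (115). Their hosts carry many listed regions each. Per listed region, 9.04%, 6.32% and 10.3% were peaks, against 5.14% over all.

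Cell adhesion and axon guidance genes counted 7 of 31 hosts (22.6%, interval 11.4 to 39.8), with the cadherin gene hmr-1 (151), unc-33 (140), lron-13 (119) and unc-73 (87.9), and 3.91% of their listed regions were peaks. The lower bounds of these 4 lists lie above 10.9%, and of the 4 only cell adhesion had a share per listed region below 5.14%. The 12 lists were chosen with earlier results of these data known, so these bounds are no test of enrichment. A host with more listed regions has more places for a peak, and no interval is given for the shares per listed region. The list named cytoskeleton and motors counted 8 of 44 (18.2%), led by dhc-4, the kinesin light chain gene klc-2 (167), unc-119 (129) and the catenin gene jac-1 (128). A place in this list does not make unc-119 a gene for a cytoskeletal or motor protein. The strain is mutant for unc-119, and whether its genotype bears on the unc-119 value was not tested. Homeobox and nuclear receptor genes counted 4 of 36 (11.1%), namely nhr-46 (203), nhr-19 (179), nhr-34 (81.1) and nhr-23 (81.0). Chromatin and general transcription genes counted 5 of 55 (9.09%), with zfp-1, mdt-26 (187), set-18 (122) and mdt-27 (110). The dhc-4 and set-18 peaks lay beside short RNA genes. Away from such genes 6 of the 8 cytoskeleton hosts and 4 of the 5 chromatin hosts had a peak, as did 9 of the 10 insulin signalling hosts and 217 of all 270.

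The remaining lists lay below the share of all hosts. RNA-binding and splicing genes counted 3 of 32, in larp-1 (215), ain-2 (188) and rbm-34 (172). Neuronal ion channel genes counted 3 of 37, in twk-5 (210), acr-18 (98.6) and trp-2 (69.5), and presynaptic genes 2 of 27, in unc-41 (155) and snt-3 (104). The peaks in rbm-34, twk-5 and unc-41 lay beside snoRNA genes and that in acr-18 beside a tRNA gene. Without these the counts were 2 for RNA binding, 1 for ion channels and 1 for presynaptic genes. None of the 12 hosts among muscle filament genes and none of the 21 among ribosome and translation genes had an intronic peak, which allows shares of up to 25% and 14.3%. The Wilson intervals of all 5 of these lists include 10.9%.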

How the data were processed

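The authors deposited ChIP-seq peak lists of 2 biological replicates, their pooled reads and the IDR threshold. The 4 lists on ce11 were used; those on ce10 were not analysed here. Column 7 holds the authors' signal value per region and column 10 the offset of the summit, per the deposited lists. The aligner, the caller and the signal scale: not given in the sources used here. Read depth is unknown, and the control that the labels mention was not analysed here. Each replicate and pooled list holds 30000 regions. Summits were placed on Ensembl release 115 genes of WBcel235, and bases were read from the RefSeq genome of that assembly, with Python 3.11.15, numpy 2.4.6, pandas 2.3.3, scipy 1.17.1 and matplotlib 3.10.9. The steps were tested on a simulated annotation with known answers. Bases and motifs were counted over 50 bp to each side of a summit and the summit itself. The description is of 1 group, so there is no test between groups. Shares have 95% Wilson intervals, and a count of 0 has the limit of 3 counts of the total. Replicate standing used overlaps of at least 1 bp. Named genes are the hosts of the 20 strongest and 3 weakest peaks, of the 3 strongest regions left out, all hosts with 3 or more peaks, and the up to 4 hosts of each list with the strongest peak; sequences are from the strongest peaks. The members, motifs and gene lists were chosen with earlier results of these data known. Alternatives were other promoter windows, region middles, the stronger peaks, each replicate alone, other window sizes, and, added after seeing the data, the RefSeq annotation and the removal of overlapping or short RNA regions. For the share beside short RNA genes every alternative was added after seeing the data, as was every alternative for the motif shares except window size and each replicate alone.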

Additional observations from a re-analysis of the deposited data

How the results depend on the processing

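Of 99 recomputed values, 72 moved by less than their interval or within 1.5 times for a count, and 27 moved more. These counts do not measure robustness, since some alternatives largely fix their own outcome. In regions of 456 bp, the width of 354 of the 370 peaks, the region middle falls at or near the summit. A wider window around the same summits cannot lower a motif share. All alternatives for the share beside short RNA genes, and those for motifs other than window size and single replicates, were chosen after seeing the data. With the 2018 strongest peaks alone, 157 were intronic (2.18% of listed intronic regions) and 25.5% of these lay beside short RNA genes. Their median A+T content was 49.5%, AAATTT was in 0% (Wilson interval 0 to 2.39) and the host promoter held a peak for 20.4%. With windows of noncoding starts left out too, 55.9% were in first introns and 4.10% of listed regions were peaks. That rule leaves out every summit beside a short RNA gene. Its share of 0% there, counted among the 27 moved values, was therefore fixed in advance. Without the regions beside short RNA genes, an alternative chosen after seeing the data like the RefSeq annotation and the joining of overlapping regions, the values were 55.6% in first introns, a median intron of 3921 bp and 4.40% peaks. With a 2000 bp upstream window they were a median intron of 3916.5 bp, 4.41% peaks and 46.9% with a host promoter peak, which was 25.4% with 500 bp on either side. Joined regions gave 5.73% peaks. With 100 bp and 25 bp on either side of the summit, GAGAGA was in 59.2% and 18.4%, AAATTT in 13.2% and 3.24%, and the median A+T content was 52.7% and 52.9%. Leaving out 1 replicate at a time gave 382 to 400 intronic peaks, 5.43% to 5.54% of listed regions, 17.2 to 18.0 per Mb, 47.8% to 50.8% in first introns, median introns of 3167.5 to 3386.5 bp, median A+T content of 52.5% to 54.5%, AAATTT in 6.02% to 12.8%, GAGAGA in 34.5% to 37.7%, host promoter peaks for 33.8% to 40.5% and 13.0% to 14.4% beside short RNA genes. The moved values among these are those of replicate 1 alone. The ce10 alternative was not run, since it needs an annotation of that build. No paired analysis was possible because there was 1 group. The causes of these shifts were not tested. Weaker regions than those listed are unknown, and without a control library neither enrichment nor library bias could be measured.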
